A study of Homo sapiens with 12 samples.

Results

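The SLC25 genes encode mitochondrial carriers, the proteins that move metabolites, nucleotides and cofactors across the inner mitochondrial membrane. Members were taken by name, as every row of the deposited expression table whose symbol was SLC25A followed by a number alone. This gave 48 genes of the 55771 in the table. Pseudogenes, antisense RNAs and relatives with other names, such as the uncoupling proteins, were not members.

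Most carriers exchange one solute for another, so that the pool on each side of the membrane stays balanced. The ADP/ATP carriers and the phosphate carrier feed ATP synthase, and the aspartate-glutamate carriers belong to the malate-aspartate shuttle, which brings the reducing power of cytosolic NADH into the matrix. The proteins are made in the cytosol and put into the inner membrane by the TIM22 complex.

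RNA-seq of total RNA was run on KELLY, an established line of human neuroblastoma cells with MYCN amplification. There were 12 libraries in 3 groups of 4: cells given the BPS1 oligonucleotide, cells given the BPS2 oligonucleotide, and cells given a control oligonucleotide. All groups received a morpholino, an uncharged antisense molecule, as a lipoplex with a DNA leash at 50 nM, and were lysed 48 h later. The series text asks which transcripts change when the long NEAT1 transcript and the nuclear bodies built on it, paraspeckles, are increased. All cells had been plated for 24 h in 10% serum and were moved to 4% serum for the treatment. The labels separate the groups by oligonucleotide only, in 1 cell line, and no untreated cells are among the libraries. The columns of BPS2 were matched by sample title, because their description field reads KPAS instead, and BSP1 is how the column of BPS1 replicate 3 is spelled. Whether a group's libraries are separate cultures is not in the labels. The p-values therefore measure spread among these libraries only, and it may be technical.

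Values are normalized counts, in which the library totals were 29.6 to 33.3 M, and levels below are in that unit. NEAT1, the gene the series set out to alter, had 2024 ± 420 in BPS1, 4262 ± 412 in BPS2 and 6879 ± 264 in control libraries (SD, n = 4 each), on 1 row that does not separate its long and short transcripts. On the log2 scale NEAT1 differed from control by −1.79 in BPS1 and −0.69 in BPS2 (limma adjusted p = 6e-06 and 0.0239), and an increase of the long transcript cannot be read from that row. Inside the bounds of NEAT1 lie the separate short rows RF01955, RF01956 and RF01957. In BPS1 they differed from control by −4.01, −3.07 and −3.04 on the log2 scale, and in BPS2 by −3.69, −3.48 and −3.33. Each passed in both (limma adjusted p from 4.94e-05 to 0.00396). RF01955 averaged 2.38 in BPS1, 2.54 in BPS2 and 42.6 in control. BPS1 replicate 4 and control replicate 1 stood apart, with an SD over genes of the deviation from each gene's median of 0.594 and 0.471 on the log2 scale, against 0.377 to 0.425 in the other libraries. Adrenergic neuroblastoma markers were abundant, with a sum over 10 genes of 196621 to 252935 in BPS1, 233859 to 249137 in BPS2 and 262571 to 314531 in control libraries. Of these 10 genes, 6 (60%) were lower in BPS1 and 2 (20%) in BPS2 than in control, against 4.32% and 0.386% of all genes tested. Summed markers of epithelial cells were 207 to 295 in BPS1, 205 to 233 in BPS2 and 186 to 299.9 in control, and those of leukocytes 18.7 to 33.1, 17.9 to 42.8 and 14.8 to 26.6 in the same order. Schwann cell markers summed to 84.8 to 124 in BPS1, 91.2 to 120 in BPS2 and 90.6 to 140 in control, with SOX10 averaging 0.129, 0.371 and 0. Fibroblast and mesenchymal markers summed to 4589 to 5558 in BPS1, 4249 to 4924 in BPS2 and 4265 to 5310 in control. Of the 6, 1 (16.7%), COL1A1, was higher in BPS2 than in control, against 0.821% of all genes tested. The part of these markers in the results below was not tested.

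Of the 48 carriers, 39 reached 10 in at least 4 libraries and were tested. In BPS1, SLC25A13 fell to 0.282 of its control level, SLC25A24 fell and SLC25A12 rose, while the other 36 did not pass. Those 3 of 39 (7.69%) stood against 8.6% of all 20454 genes tested (1 higher against 4.29%, 2 lower against 4.32%), so the family as a whole was called about as often as other genes. In BPS2, 1 of 39 (2.56%), SLC25A29, was lower than in control, against 1.21% of all genes (0.386% lower and 0.821% higher). BPS2 differed from BPS1 in 3 of 39 (7.69%), the same SLC25A13 and SLC25A24, now higher, and SLC25A12, now lower, against 3.93% of all genes (2.3% higher and 1.63% lower). That comparison uses the same BPS1 libraries. A carrier passed at an adjusted p under 0.05 from a limma fit over all genes tested. The BPS1 and BPS2 comparisons with control share the 4 control libraries. The median log2 fold change of the 39 was −0.05 in BPS1 and −0.0046 in BPS2, beside −4e-04 and 0.0025 over all genes.

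Of the 36 carriers that did not pass in BPS1, 29 had a log2 fold change within 0.3 of 0, and the highest was SLC25A34 at 0.50. In BPS2 the 38 that did not pass ranged from −0.29 (SLC25A36) to 0.46 (SLC25A34), and 34 lay within 0.3 of 0. A missed threshold does not show that a gene did not change. The 95% interval of the difference lay inside a 1.5-fold change for 26 of 39 carriers in BPS1 and for 31 of 39 in BPS2. At an unadjusted p under 0.05 (limma) there were 10 of 39 carriers (25.6%) in BPS1, against 22.5% of all genes, and 4 (10.3%) in BPS2, against 11.4%. The sign of the difference from control changed under at least 1 alternative for 13 of 39 carriers in BPS1 and 18 in BPS2, and 0 of these passed with the changed sign.

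**Figure D1:**
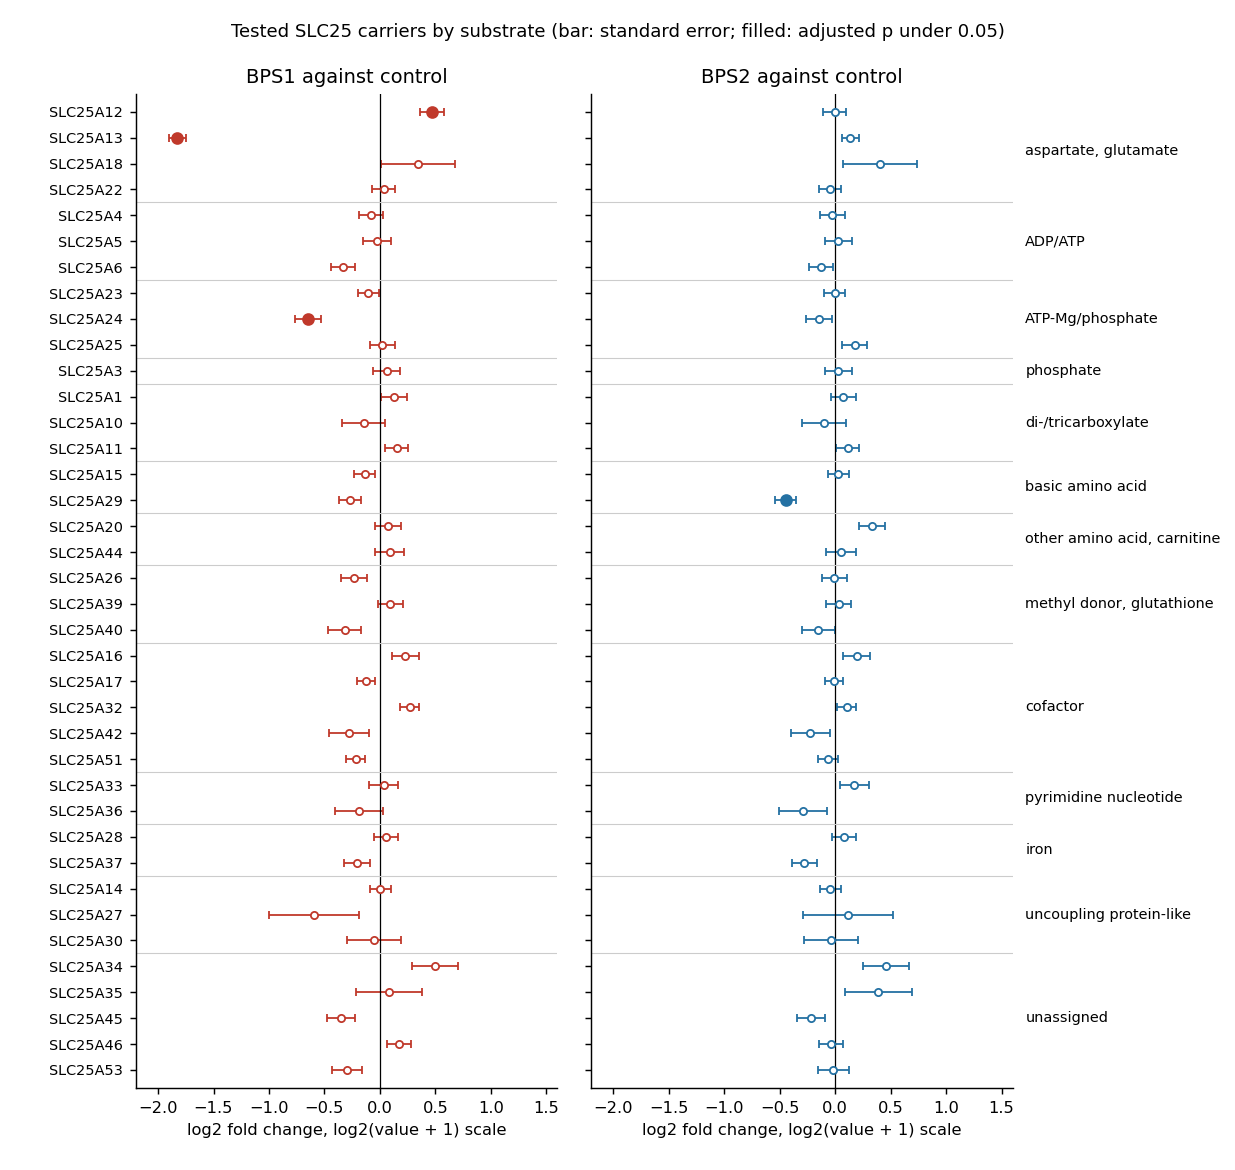
Log2 fold change on the log2(value + 1) scale of 38 of the 39 tested carriers, grouped by substrate, in BPS1 against control (left) and BPS2 against control (right). Points are fitted differences, bars their standard errors and filled points carriers that passed. SLC25A13 stands at −1.83 in BPS1 and at 0.13 in BPS2, and most other points lie near 0.

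The aspartate-glutamate carriers SLC25A13 (citrin, or AGC2) and SLC25A12 (aralar, or AGC1) exchange matrix aspartate for cytosolic glutamate and a proton, and calcium binding on their cytosolic side activates them. Loss of SLC25A13 in people causes citrin deficiency, a liver disease with citrullinemia, and SLC25A12 is the main form in neurons. In BPS1 SLC25A13 fell and SLC25A12 rose, and the promoters of this pair are shown together. The stretches run from 250 bases before to 50 after the gene's start, on the minus strand of GRCh38.p14 as given by RefSeq, at chr7:96322049-96322348 and chr2:171894195-171894494. Capitals mark matches on either strand to an E-box (CACGTG) or a GC box (GGGCGG).
SLC25A13: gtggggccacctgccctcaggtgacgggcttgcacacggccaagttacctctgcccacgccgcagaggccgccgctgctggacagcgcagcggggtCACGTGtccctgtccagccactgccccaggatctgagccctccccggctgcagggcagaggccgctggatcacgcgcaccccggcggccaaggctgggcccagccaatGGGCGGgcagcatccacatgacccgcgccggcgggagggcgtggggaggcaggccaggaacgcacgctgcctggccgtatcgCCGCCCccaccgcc
SLC25A12: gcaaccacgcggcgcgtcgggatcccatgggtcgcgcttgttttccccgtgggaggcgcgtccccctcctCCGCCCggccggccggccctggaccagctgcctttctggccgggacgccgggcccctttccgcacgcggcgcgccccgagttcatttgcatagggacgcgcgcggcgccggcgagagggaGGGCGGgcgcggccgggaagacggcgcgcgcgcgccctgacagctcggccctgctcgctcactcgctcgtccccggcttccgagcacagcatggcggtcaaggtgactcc

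The SLC25A13 promoter holds 1 E-box and 2 GC boxes and has a GC content of 74.0%. That of SLC25A12 holds 2 GC boxes and no E-box and has a GC content of 75.3%. Of the 48 carriers, 40 had a promoter in the table. An E-box stood in 7 of these (17.5%) and in 7.43% of all 27305 promoters of the same length, and a GC box in 28 (70.0%) and in 44.6%. Other motifs were searched on both strands as well. CCGGAAG (ETS) was in 8 carriers (20.0%) and 10.7% of all promoters, TGACGTCA (cyclic AMP response element) in 3 (7.5%) and 1.98%, and TGANTCA (AP-1) in none of the 40 and 7.76%. None of the matches shown overlap, and a match is a description of letters, not a binding site.

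SLC25A13 (ENSG00000004864, chromosome 7, 96120220 to 96322147 on the minus strand of GRCh38) had 1282, 1311, 1065 and 1164 in the BPS1 libraries, 5077, 4653, 4353 and 4686 in the BPS2 libraries, and 4221, 4426, 4275 and 4164 in the control libraries. All BPS1 libraries lay far below every other library, and the BPS2 and control ranges overlapped. Against control it fell in BPS1, with a log2 fold change of −1.83 ± 0.08 and a 95% interval of −1.99 to −1.66 (SE of the fit; limma adjusted p = 4.71e-08), a ratio of means of 0.282. This was the gene with rank 2 by p among the 20454 tested. In BPS2 the difference from control was 0.13 ± 0.08, with an interval of −0.03 to 0.30 (limma adjusted p = 0.557). BPS2 was higher than BPS1 by 1.96 ± 0.08 (limma adjusted p = 1.93e-08), a ratio of means of 3.89 and again rank 2. In bulk RNA a lower level per cell and fewer cells with the transcript cannot be told apart. Leaving out any 1 library kept the BPS1 difference from control between −1.87 and −1.77.

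SLC25A12 (ENSG00000115840, chromosome 2, 171784370 to 171999859 on the minus strand) had 1267, 1318, 1110 and 1048 in the BPS1 libraries, 885, 840, 761 and 917 in the BPS2 libraries, and 785, 853, 777 and 1010 in the control libraries. Every BPS1 library was above every BPS2 and control library, narrowly so for control replicate 4. It rose in BPS1 against control, by 0.47 ± 0.11 on the log2 scale (limma adjusted p = 0.0157), a ratio of means of 1.39. The call was lost without BPS1 replicate 2 (limma adjusted p = 0.0516), without control replicate 3 (0.0522) and when BPS1 and control alone were fitted (0.0514). BPS2 did not pass against control (−0.0046 ± 0.11, limma adjusted p = 0.994, with a sign that changed under 4 alternatives). BPS2 was lower than BPS1 (−0.48 ± 0.11 on the log2 scale, limma adjusted p = 0.0246). That call was lost without BPS1 replicate 1 or 2 or BPS2 replicate 1, 2 or 3 (adjusted p = 0.0524 to 0.0864), and with the replicate block (0.0612). Position and neighbours here are those of GENCODE release 29, in which the gene's bounds overlap HAT1 and METAP1D on the other strand. The RefSeq start used for the promoter lies inside these bounds, before HAT1 (171922448 to 171983682), and a gene from that start would not reach either. The library kit keeps strand, but the sources used here do not say whether quantification used it.

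The balance of the pair therefore differed between groups. SLC25A13 over SLC25A12 was 0.959 to 1.11 in the BPS1 libraries, 5.11 to 5.74 in the BPS2 libraries and 4.12 to 5.50 in the control libraries. The BPS1 ratio averaged 1.02 ± 0.0649, against 5.53 ± 0.292 in BPS2 and 5.05 ± 0.629 in control (SD, n = 4). The sum of both genes was 2391 ± 231 in BPS1, 5543 ± 349 in BPS2 and 5128 ± 123 in control, so the gain in SLC25A12 was smaller in counts than the loss of SLC25A13. These ratios and sums are built from the values above and are given without a test. Per kilobase of the principal transcript, SLC25A13 averaged 384 in BPS1, 1496 in BPS2 and 1362 in control, and SLC25A12 averaged 398, 286 and 287 in the same order.

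**Figure D2:**
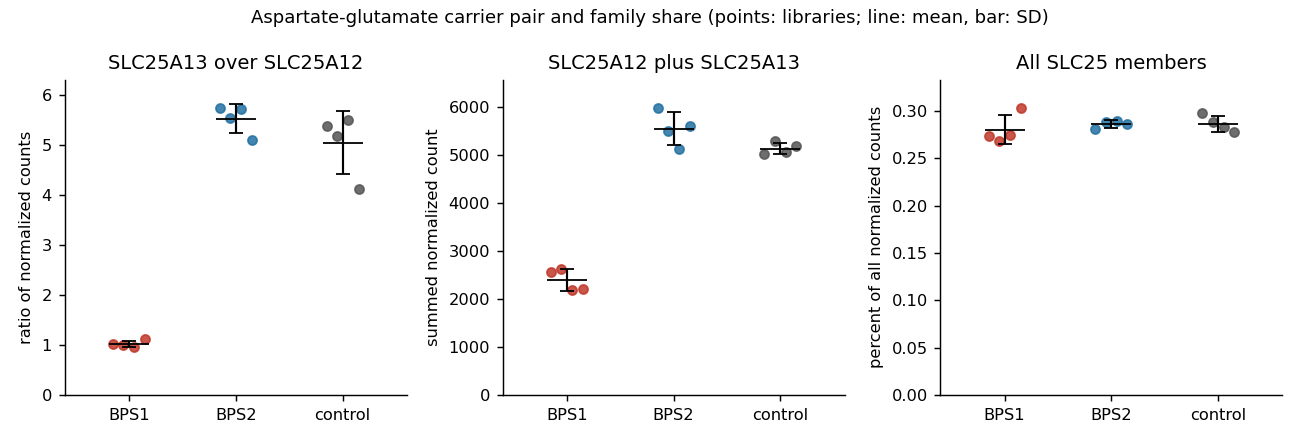
Ratio of SLC25A13 to SLC25A12 (left), their summed normalized count (middle) and the share of all normalized counts held by the 48 carriers (right), in BPS1, BPS2 and control. Points are libraries, lines means and bars SDs. The ratio is near 1 in BPS1 and between 4.12 and 5.74 in all other libraries, while the family's share lies between 0.269% and 0.303% everywhere.

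The glutamate carriers SLC25A22 (GC1) and SLC25A18 (GC2), which bring glutamate into the matrix with a proton, did not pass. SLC25A22 averaged 670.2 ± 32.5 in BPS1, 638 ± 90.8 in BPS2 and 655 ± 43.6 in control. SLC25A18 was close to the filter, at 20.0 ± 11.1 in BPS1, 18.8 ± 3.78 in BPS2 and 13.8 ± 1.05 in control. Their log2 differences from control were 0.03 and 0.35 in BPS1 and −0.05 and 0.40 in BPS2, with no limma adjusted p below 0.596 in either.

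Of the partner enzymes of the shuttle, GOT1, GOT2, MDH1 and MDH2, 0 of 4 passed in either comparison with control, and none reached an unadjusted p under 0.05 there (limma). GOT1, the cytosolic aspartate aminotransferase, differed by −0.17 ± 0.12 in BPS1 and 0.09 ± 0.12 in BPS2. MDH2, the matrix malate dehydrogenase, differed by −0.18 ± 0.11 and 0.09 ± 0.11. In BPS2 against BPS1, 0 of 4 passed and 2 had an unadjusted p under 0.05. The urea cycle uses the aspartate that citrin exports in liver. Its 7 listed genes had 5 members tested, of which 0 passed in any comparison and 0 had an unadjusted p under 0.05. ASS1, argininosuccinate synthase, averaged 2410 ± 444 in BPS1, 2744 ± 245 in BPS2 and 2542 ± 250 in control.

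The ADP/ATP carriers exchange cytosolic ADP for matrix ATP, and SLC25A4, SLC25A5 and SLC25A6 were tested. SLC25A4 (ANT1, the heart and muscle form) had 1430, 1449, 1555 and 2025 in the BPS1 libraries, 1596, 1706, 1720 and 1626 in BPS2, and 1935, 1683, 1658 and 1514 in control. SLC25A5 (ANT2, the form of dividing cells) had 5429, 5883, 5835 and 8226 in BPS1, 6535, 6465, 6263 and 6748 in BPS2, and 7597, 6507, 6039 and 5516 in control. For both genes all groups overlapped, with BPS1 replicate 4 above the rest. The log2 difference from control was −0.08 ± 0.11 for SLC25A4 and −0.03 ± 0.12 for SLC25A5 in BPS1, and −0.03 and 0.03 in BPS2 (limma adjusted p from 0.727 to 0.959). These small differences changed sign under some alternatives, except that of SLC25A4 in BPS1.

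SLC25A6 (ANT3, a widely expressed form) had 5077, 4784, 4900 and 7012 in the BPS1 libraries, 5656, 6346, 6715 and 6089 in BPS2, and 7322, 6460, 6512 and 6813 in control. The BPS1 libraries other than replicate 4 lay below every control library. With all libraries it did not pass in BPS1 (−0.33 ± 0.11, limma adjusted p = 0.0824). Without BPS1 replicate 4 the difference was −0.46 and passed (limma adjusted p = 9.55e-04). BPS2 differed from control by −0.13 (limma adjusted p = 0.729). SLC25A6 lies in a region shared by the X and Y chromosomes, and the table holds 40 pseudogene rows of the family, copies of SLC25A5 and SLC25A6 among them, so reads of these genes could be split. Only 2 of the 40, SLC25A15P4 and SLC25A5P1, were tested, and 0 passed in any comparison. Of 5 antisense rows, SLC25A25-AS1 and SLC25A5-AS1 were tested and neither passed. SLC25A31 (ANT4, the testis form) had 0 to 2 reads in every library.

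SLC25A3, which brings phosphate into the matrix for ATP synthesis, was the most abundant carrier. It had 26164, 26363, 27511 and 38982 in the BPS1 libraries, 27427, 29246, 29337 and 28728 in BPS2, and 34148, 27825, 26423 and 24982 in control. All groups overlapped, and the highest value in each of BPS1 and control was in the library that stood apart. BPS1 differed from control by 0.06 on the log2 scale (limma adjusted p = 0.83) and BPS2 by 0.03 (0.962), and both signs changed under 2 alternatives.

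SLC25A24 belongs to the ATP-Mg/phosphate carriers, which load or drain the matrix pool of adenine nucleotides under control of calcium. Its row carries the identifier ENSG00000284468, which has no position in GENCODE release 29. SLC25A24 had 570, 551, 549.5 and 399.8 in the BPS1 libraries, 769, 759, 692 and 699.8 in BPS2, and 695, 855, 868 and 814 in control. Every BPS1 library was below every other library, while BPS2 and control overlapped. It fell in BPS1 against control (−0.65 ± 0.12 on the log2 scale, limma adjusted p = 0.00412), a ratio of means of 0.640, and the call held without any 1 library. In BPS2 the difference was −0.14 (limma adjusted p = 0.717). BPS2 was higher than BPS1 by 0.51 ± 0.12 (limma adjusted p = 0.0282), a call lost without BPS1 replicate 2 or 3 or any 1 BPS2 library (adjusted p = 0.0503 to 0.0856), with the replicate block (0.0666) and when the BPS2 and BPS1 libraries alone were fitted (0.0595). Its relatives did not pass: SLC25A23 differed from control by −0.10 in BPS1 and −0.01 in BPS2, and SLC25A25 by 0.02 and 0.18. SLC25A41 was not tested.

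SLC25A29 carries basic amino acids such as arginine and lysine. SLC25A29 (ENSG00000197119, chromosome 14, 100291111 to 100306547 on the minus strand) had 1086, 1282, 1359 and 1061 in the BPS1 libraries, 1078, 1084, 1015 and 1033 in BPS2, and 1313, 1478, 1624 and 1339 in control. Every BPS2 library was below every control library, and BPS1 overlapped both. In BPS2 it fell (−0.45 ± 0.10 on the log2 scale, limma adjusted p = 0.0453). The call was lost under 12 of 24 alternatives, and over those the adjusted p reached 0.148 without BPS2 replicate 3. Without any 1 of BPS1 replicates 1 and 2, the BPS2 libraries or control replicates 2, 3 and 4, it did not pass. BPS1 differed by −0.27 (limma adjusted p = 0.112), and BPS2 against BPS1 by −0.18 (0.386). The ornithine carrier of the urea cycle, SLC25A15, averaged 805 ± 78.4 in BPS1, 900.5 ± 52.4 in BPS2 and 885 ± 82.8 in control and did not pass.

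**Figure D3:**
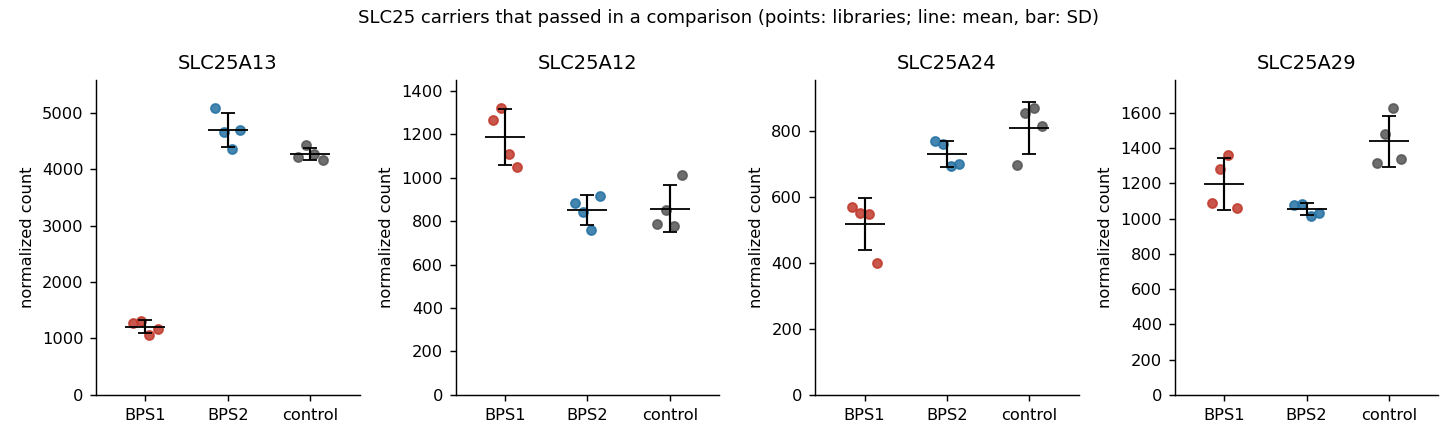
Normalized count of the 4 carriers that passed in at least 1 comparison, in BPS1, BPS2 and control. Points are libraries, lines means and bars SDs, and each axis starts at 0. BPS1 is set apart for SLC25A13, SLC25A12 and SLC25A24, and BPS2 lies below control for SLC25A29.

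The carriers of di- and tricarboxylates did not pass. SLC25A1, which exports citrate for fatty acid synthesis, averaged 1891 ± 378 in BPS1, 1799 ± 105 in BPS2 and 1710 ± 123 in control. SLC25A11, the 2-oxoglutarate/malate carrier and the other carrier of the malate-aspartate shuttle, averaged 1662 ± 181 in BPS1, 1618 ± 181 in BPS2 and 1496 ± 134 in control. SLC25A10, the dicarboxylate carrier, averaged 599.6 ± 103, 632 ± 181 and 663 ± 106 in the same order. None of the 3 reached an unadjusted p under 0.05 (limma), and their log2 differences from control lay between −0.15 and 0.15 in both groups.

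SLC25A21, the 2-oxoadipate carrier, was too low to test but uneven. It had 15.5, 1.55, 17.5 and 0 in the BPS1 libraries, 0.706, 0.701, 0 and 1.74 in BPS2, and 0.221, 0, 0 and 0.228 in control. BPS1 replicates 1 and 3 were above every other library and BPS1 replicate 4 was at 0, so the BPS1 libraries spanned the whole range.

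The cofactor carriers described here did not pass. SLC25A32, which imports folate, averaged 1383 ± 132 in BPS1, 1232 ± 45.2 in BPS2 and 1147 ± 90.4 in control, with a difference of 0.27 in BPS1 (limma adjusted p = 0.0719). SLC25A51, an NAD+ carrier, averaged 453 ± 38.8 in BPS1, 504 ± 33.2 in BPS2 and 527 ± 33.8 in control (−0.22 in BPS1, limma adjusted p = 0.159). SLC25A16 and SLC25A42, linked to coenzyme A, and SLC25A17, a peroxisomal carrier, differed from control by 0.23, −0.28 and −0.13 in BPS1 and did not pass.

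The carriers of glutathione and of methyl groups did not pass. SLC25A39, needed for glutathione import, averaged 9675 ± 1995 in BPS1, 9141 ± 558 in BPS2 and 8959.6 ± 736 in control. Its close relative SLC25A40 averaged 616 ± 156 in BPS1, 676 ± 37.1 in BPS2 and 753 ± 82.1 in control. SLC25A26, the S-adenosylmethionine carrier, differed by −0.24 in BPS1 and −0.01 in BPS2. The mitoferrins SLC25A37 and SLC25A28, which import iron, differed by −0.21 and 0.05 in BPS1 and by −0.28 and 0.08 in BPS2. The pyrimidine nucleotide carriers SLC25A33 and SLC25A36 differed by 0.03 and −0.19 in BPS1 and by 0.17 and −0.29 in BPS2, and did not pass. Without BPS1 replicate 4 both signs turned in BPS1, to −0.0889 for SLC25A33 and 0.0585 for SLC25A36. Without control replicate 1 and BPS1 replicate 4 together, both passed in BPS2 against control, SLC25A33 at 0.28 (limma adjusted p = 0.0277) and SLC25A36 at −0.46 (0.0018). SLC25A36 also passed there with library weights (−0.42, limma adjusted p = 0.0407).

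SLC25A20, which carries acylcarnitine into the matrix for fatty acid oxidation, averaged 362 ± 58.1 in BPS1, 430.4 ± 38.5 in BPS2 and 341 ± 22.9 in control. Every BPS2 library was above every control library, but it did not pass (0.33, limma adjusted p = 0.272). BPS2 and control also failed to overlap for SLC25A29 and SLC25A37, which makes 3 of 39 carriers (7.69%), against 9.65% of all genes tested and the 1.21% that passed. In BPS1 the same count was 3 of 39, the carriers that passed, against 14.3% of all genes. SLC25A44, which carries branched-chain amino acids, averaged 2564 ± 470 in BPS1, 2475 ± 287 in BPS2 and 2383 ± 209 in control.

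The uncoupling protein-like carriers SLC25A14 and SLC25A30 differed from control on the log2 scale by 0.0032 and −0.05 in BPS1 and by −0.04 and −0.04 in BPS2, and neither passed. SLC25A27, which is low, averaged 13.6 ± 7.42 in BPS1, 22.4 ± 10.97 in BPS2 and 19.8 ± 5.88 in control. Of the carriers given no substrate here, SLC25A34 averaged 81.5 ± 14.8 in BPS1, 79.8 ± 17.9 in BPS2 and 58.0 ± 13.8 in control, with differences of 0.50 and 0.46 (limma adjusted p = 0.174 and 0.422). SLC25A46, an outer membrane protein that shapes mitochondria, differed by 0.17 and −0.04, SLC25A35 by 0.08 and 0.39, and SLC25A53 by −0.30 and −0.02. SLC25A45 lies 39073 bases from NEAT1 on chromosome 11 (65375192 to 65383701), and it averaged 154 ± 18.5 in BPS1, 169 ± 23.6 in BPS2 and 196 ± 18.9 in control. It did not pass in BPS1 (−0.35, limma adjusted p = 0.114) or BPS2 (−0.21, 0.575).

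The 9 carriers not tested were SLC25A2, SLC25A21, SLC25A31, SLC25A38, SLC25A41, SLC25A43, SLC25A47, SLC25A48 and SLC25A52. Their group means were 0.112 to 8.65. SLC25A38, the glycine carrier of heme synthesis, came in whole reads, with 22 over the BPS1 libraries, 19 over BPS2 and 25 over control. The exact 95% Poisson intervals of these totals, 13.8 to 33.3, 11.4 to 29.7 and 16.2 to 36.9, overlap and cover counting error only. SLC25A2, SLC25A31 and SLC25A52 had 0 to 2 reads per library, under the 3 reads that a count of 0 allows.

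Per kilobase of the principal transcript, which sets genes of different length on 1 scale, 46 carriers could be ordered. SLC25A3 was first in all 3 groups, at 17732 in BPS1, 17094 in BPS2 and 16892 in control. SLC25A39, SLC25A5 and SLC25A6 followed in every group, at 5575, 5035 and 3287 in control, and the control ranges of SLC25A39 and SLC25A5 overlapped. SLC25A13 had rank 5 in BPS2 and control, clear of its neighbours in control, and rank 16 in BPS1. SLC25A36, SLC25A1 and SLC25A17 came next in control, at 1040, 1038 and 918, with overlapping ranges. SLC25A12 had rank 15 in BPS1, 21 in BPS2 and 22 in control. The 48 carriers together held 0.280% ± 0.0154 of all normalized counts in BPS1, 0.286% ± 0.00394 in BPS2 and 0.287% ± 0.00837 in control.

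**Figure D4:**
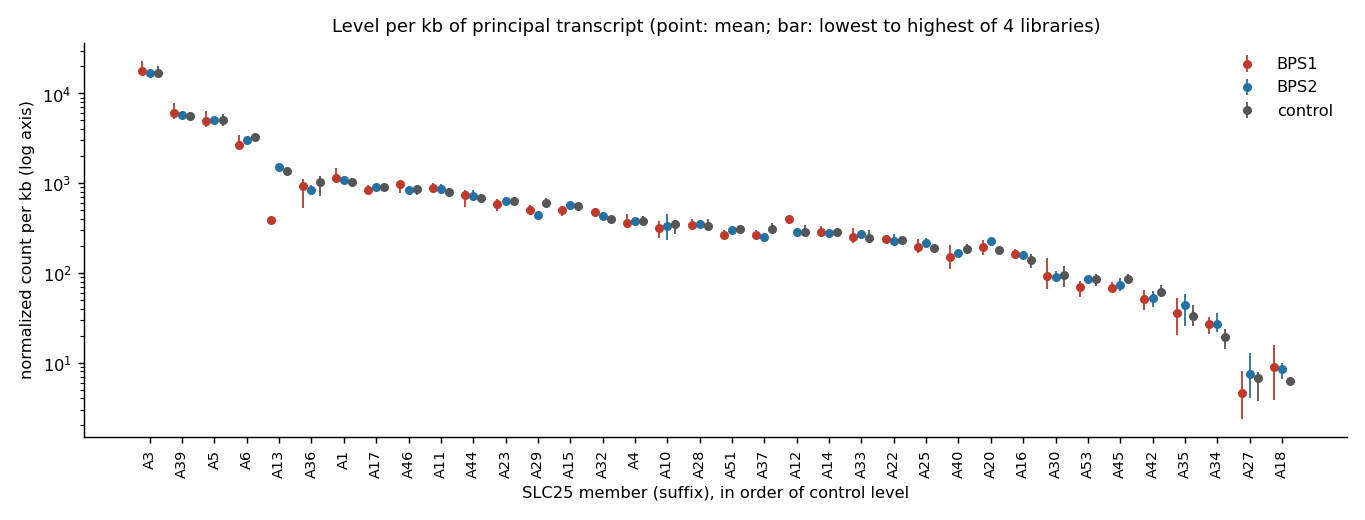
Normalized count per kilobase of principal transcript on a log axis for tested carriers that have a length, ordered by control level, in BPS1, BPS2 and control. Points are means and bars run from the lowest to the highest of 4 libraries. SLC25A3 is highest at 16892 in control, and SLC25A13 in BPS1 (384) lies below BPS2 (1496) and control (1362).

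Other mitochondrial genes give the setting. Over all genes tested, 4.32% were lower in BPS1 and 0.386% in BPS2 than in control. Of 12 tested genes of the route that imports carriers, 0 passed in BPS2, where 1 had an unadjusted p under 0.05 (limma). In BPS1, 1 of the 12 (8.33%) was lower. It was TIMM8A, a small chaperone of the intermembrane space, at −0.28 ± 0.08 (limma adjusted p = 0.0484). Among inner membrane transporters outside the family, SFXN3, a sideroflexin, was lower in BPS1, with 143 ± 19.9 in BPS1, 188 ± 38.6 in BPS2 and 227 ± 37.2 in control (−0.66 in BPS1, limma adjusted p = 0.0279). Of the 12 tested, 0 passed in BPS2 against control, where 3 had an unadjusted p under 0.05 (limma).

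Relatives named outside the SLC25A series had 4 of 5 tested, UCP2, UCP3, MTCH1 and MTCH2, and 0 passed in BPS1 or BPS2, with 1 at an unadjusted p under 0.05 in each (limma). UCP2 was 0.41 above control in BPS1 (limma adjusted p = 0.0583). The outer membrane channels VDAC1, VDAC2 and VDAC3 gave 0 of 3 in both, with 0 and 1 at an unadjusted p under 0.05. Of 10 markers of mitochondrial mass, 0 passed in BPS2, where 0 had an unadjusted p under 0.05 (limma). In BPS1, 1 of the 10 (10%) was lower, against 4.32% of all genes. It was CS, citrate synthase, which averaged 5763 ± 312 in BPS1, 9093 ± 680 in BPS2 and 9511 ± 665 in control (−0.72 in BPS1, limma adjusted p = 7.35e-05). Of the 13 protein genes of the mitochondrial genome, 6 (46.2%) were lower in BPS1 and 2 (15.4%) in BPS2, against 4.32% and 0.386% of all genes. They were led by MT-CO2 in BPS1 (−0.49, limma adjusted p = 0.00546) and MT-ND5 in BPS2 (−0.51, 0.00396). Mitochondrially encoded genes held 7.56% ± 0.184 of all counts in BPS1, 8.11% ± 0.125 in BPS2 and 8.67% ± 0.448 in control, and the part of this in the carrier results was not tested.

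Genes within 500 kb of the carriers that passed were looked at after their values were seen. Near SLC25A13, SEM1 (−0.22, limma adjusted p = 0.436) and DYNC1I1 (−0.49, 0.0992) were tested in BPS1 and neither passed. Near SLC25A12 there were 10 tested genes, of which 0 passed in BPS1, HAT1 and METAP1D among them (0.22 and −0.44, limma adjusted p = 0.215 and 0.106). Near SLC25A29, 0 of 11 passed in BPS2, and 1 of 11, DLK1, passed in BPS1 (−0.40, limma adjusted p = 0.0480). Of all genes tested, 8.6% passed in BPS1 and 1.21% in BPS2. These counts are too small to set the neighbours apart from other genes.

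The counts of carriers called turned on single libraries, and so did those over all genes. Without BPS1 replicate 4, 7 carriers (17.9%) passed in BPS1 against control, beside 11.6% of all genes: SLC25A12, SLC25A13 and SLC25A24 again, and among the others SLC25A6, SLC25A45 (−0.43, limma adjusted p = 0.0414) and SLC25A32 (0.29, 0.0466). Without BPS1 replicate 1 there were 5 (12.8%, beside 7.12%). In BPS2 against BPS1 there were 6 without BPS1 replicate 4 (15.4%, beside 8.63%) and 1, SLC25A13, without any 1 of BPS1 replicate 2 and BPS2 replicates 1, 2 and 3. Without control replicate 1 and BPS1 replicate 4 together, 5 passed in BPS1 (12.8%, beside 13.7% of all genes), 4 in BPS2 (10.3%, beside 9.54%) and 12 in BPS2 against BPS1 (30.8%, beside 17.4%). SLC25A13 passed in BPS1 against control and in BPS2 against BPS1 under each of the 24 alternatives.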

How the data were processed

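Total RNA from 12 KELLY libraries was depleted of ribosomal RNA, made into stranded libraries and read as single 100-base reads, per the labels' protocols. Per the submitters' processing notes, the tools were Salmon 0.8.2, FastQC 0.11.7 and DESeq2, on GRCh38, with no DESeq2 version or annotation release. The deposited values are a signal per gene and library, the authors' normalized counts. Depth was estimated as each library's total over what 1 read is worth, the step between low values. It came to 29.1 to 31.8 M, against a stated mean of 25 M, and is rough because most genes with several transcripts are not in whole reads. A row counted as whole reads where its values lay within 0.001 of a multiple.

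Genes with at least 10 in at least 4 libraries were tested as log2(value + 1) in 1 limma fit (limma 3.58.1, R 4.3.3, eBayes with trend) of all 12 libraries by group. Fold changes on the log2(value + 1) scale understate low genes. The threshold was 0.05 for two-sided p-values adjusted over all genes by Benjamini and Hochberg. Values are mean ± SD (n = 4), differences ± SE. The fit was tested on simulated data. Positions, GC content and lengths came from GENCODE release 29 (53405 of 55771 identifiers), which lacked SLC25A24 and SLC25A26.

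Carriers that passed, SLC25A12, the ADP/ATP carriers and SLC25A3 were given per library. Other carriers were given by substrate, and listed genes by count with up to 4 named. SLC25A21 is also shown per library, chosen after its values were seen. Some items are not reported here. Members and lists were chosen with earlier results of these data known. Alternatives were other pseudocounts (0.5, 5), another filter (none, or 50), quantile or median-of-ratios scaling, robust variances, weighted libraries, a replicate block, fits without the uncompared group, a GC correction, and omitted libraries. Of the per-sample columns, 0 were left unused.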

Additional observations from a re-analysis of the deposited data

Results flagged for a closer look

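Among 117 groups of 4 libraries, 1 for each tested carrier and group, 9 had a library far from the other 3. Chance flags about 1 in 20 groups. Most were BPS1 replicate 4, the library that stood apart over all genes. It was high for SLC25A1 (2453, next 1773), SLC25A3 (38982, next 27511), SLC25A5 (8226, next 5883), SLC25A6 (7012, next 5077) and SLC25A33 (1235, next 905). It was low for SLC25A24 (399.8, next 549.5) and SLC25A36 (2475, next 4776). SLC25A36 was also low in control replicate 1 (3313, next 5200.5), the other library that stood apart. SLC25A27 was low in control replicate 2 (11.03, next 21.8). Across genes, the deviation of BPS1 replicate 4 rose with transcript GC content (Spearman's rho 0.336 over 19796 genes and 0.317 over 37 tested carriers, which share the library). In the other libraries rho over all genes ran from −0.215 (control replicate 3) to 0.185 (BPS2 replicate 3). Over the 37 carriers BPS2 replicate 1 had the larger trend, at −0.404. The part of GC content in these values was not tested.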

How the results depend on the processing

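SLC25A13 kept its direction in all 3 comparisons and its calls in BPS1 against control and BPS2 against BPS1 under all 24 alternatives, and SLC25A24 kept its call in BPS1 against control under the 23 that could be run for it. The count of carriers called was 3 in BPS1 against control, 1 in BPS2 against control and 3 in BPS2 against BPS1. With library weights it was 7, 3 and 12 (17.9%, 7.69% and 30.8%, beside 16.5%, 6.34% and 17.7% of all genes, which also gained calls). With the GC trend removed it was 7, 0 and 3 of 37 (18.9%, 0% and 8.11%, beside 10.5%, 1.66% and 5.04%), as SLC25A24 and SLC25A26 have no GC content. Without control replicate 1 and BPS1 replicate 4 together it was 5, 4 and 12 (13.7%, 9.54% and 17.4% of all genes), and with no filter the BPS2 count against control was 0. Omitting 1 library gave 2 to 7, 0 to 1 and 1 to 6. The causes were not tested. With the replicate number as a block the counts were 3, 0 and 1. Libraries with the same number did not deviate together (correlations of −0.272 to 0.103, and 0 libraries matched their own number best). The labels do not say whether such libraries share a culture or batch. These correlations cannot settle it, because the deviations are taken from group means that include the libraries that stood apart.

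Signs changed under at least 1 alternative for 13, 18 and 15 of 39 carriers in the 3 comparisons, and 0 of these passed with the changed sign. Without BPS1 replicate 4 they changed for 11 in BPS1 against control, SLC25A1, SLC25A20, SLC25A25, SLC25A33, SLC25A36 and SLC25A39 among them. Of the carriers given per library, those that changed sign follow, in log2 units. In BPS1 against control, SLC25A3 was −0.0047 with library weights and −0.0773 to 0.1525 over single omissions, turning negative without BPS1 replicate 4. SLC25A5 was −0.1573 to 0.0589, turning positive without BPS1 replicate 1, 2 or 3 or control replicate 1. In BPS2 against control, SLC25A12 was 0.0214 with the GC trend removed and −0.0483 to 0.0773 over single omissions, positive without BPS2 replicate 2 or 3 or control replicate 4. SLC25A3 was −0.0302 to 0.12, negative without control replicate 3 or 4, and SLC25A5 −0.0401 to 0.1138, negative without control replicate 4. SLC25A4 was 0.0092 with library weights, −0.0786 to 0.0394 over single omissions, positive without control replicate 1, and 0.0394 without that library and BPS1 replicate 4. In BPS2 against BPS1, SLC25A3 was 0.0886 with library weights, −0.0874 to 0.1044 over single omissions, positive without BPS1 replicate 4, and 0.1044 without control replicate 1 as well. SLC25A5 was −0.0133 to 0.1864, negative without BPS1 replicate 1. Its 0.1864 did not pass without BPS1 replicate 4 (limma adjusted p = 0.21) but passed without control replicate 1 as well (0.0419). With 4 libraries a group, small changes of low carriers such as SLC25A18 and SLC25A27 could not be detected. Changes of abundant carriers could be missed as well. For SLC25A36, with a control mean of 4822, the 95% interval in BPS1 against control was −0.66 to 0.28.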
